A study of Mus musculus with 12 samples.

Results

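The genes that bring fatty acids into skeletal muscle and oxidise them in mitochondria were followed in the tibialis anterior, a hindlimb muscle of the mouse made mostly of fast fibres. The 38 genes were a list of symbols, and all 38 were found among the 24421 entries of the count table. They were taken in 6 steps: uptake (8 genes), activation (5), the carnitine shuttle (5), beta-oxidation (13), electron transfer (3), and thioesterases with uncoupling (4). RNA was sequenced from 6 samples of C57Bl/6 mice, here called WT, and 6 of mdx/mTR mice, all of them 4-month-old males. In mdx the dystrophin gene Dmd is mutated, and mTR denotes the mouse telomerase RNA. The labels give neither the form of the mTR allele nor the generation, and they name no littermates, so the comparison is between strains. Nothing in the labels beyond the sample numbers says that each library came from a separate animal, and the p-values measure the spread between these libraries.

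Library totals were 36903560 to 40981012 counts in WT, against 35136327 to 60330410 in mdx/mTR. Levels are CPM, counts brought to a common library total, with library sizes adjusted by TMM, a trimmed mean that centres most genes on no change. Dmd was at 228 to 244 CPM in WT, against 35.2 to 56.4 CPM in mdx/mTR. The telomerase RNA gene Terc had 2 counts in all WT libraries together and 0 in mdx/mTR, so this allele could not be checked. The fast fibre genes Myh4, Actn3, Pvalb, Tnni2, Tnnt3, Tnnc2, Mylpf and Atp2a1 summed to 149950 to 186250 CPM in WT, against 118880 to 169140 CPM in mdx/mTR. Their high levels show fast muscle, but no other muscle was compared, so they cannot single out the tibialis anterior.

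Muscle takes fatty acids from lipoproteins and from albumin. Lipoprotein lipase on the capillary wall frees them, CD36 and the transport proteins of the Slc27a family carry them across membranes, and binding proteins hold them in the cytosol. Acyl-CoA synthetases then activate them, the carnitine shuttle moves long chains into mitochondria, and rounds of dehydrogenation, hydration, oxidation and thiolysis cut off acetyl-CoA, while electrons pass through the electron transfer flavoprotein to the respiratory chain. Malonyl-CoA, made by acetyl-CoA carboxylase, holds the shuttle back at its first enzyme, carnitine palmitoyltransferase 1.

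Most of these genes were lower in mdx/mTR muscle, and the largest falls lay in uptake and in thioesterases. By edgeR's quasi-likelihood test with a Benjamini-Hochberg adjusted p under 0.05 over all 13937 genes tested, 30 of the 38 fell and 2 rose. Over all tested genes 23.4% fell and 25.0% rose. As log2 of mdx/mTR over WT, the median fold change was -0.41 for the 38 genes and 0.01 for all tested genes. In 20 of the 38 every mdx/mTR library lay below every WT library, which was so for 12.6% of tested genes. In 0 of the 38 every mdx/mTR library lay above every WT library, which was so for another 12.6% of tested genes. A fall of at least 2-fold was found for 3 genes, Acot2, Lpl and Fabp3, where 1.94% of tested genes fell that far. The genes that fell were at a median of 70.7% of the WT level. Summed over the 38 genes, the level was 7703 ± 458 CPM in WT, against 5105 ± 565 CPM in mdx/mTR (mean ± SD of 6 libraries each), without overlap. All 38 genes were counted in every library, with 12 counts as the lowest value, and all passed the filter on low counts. The authors' deposited table gives the same 30 falls and 2 rises at an adjusted p under 0.05, and the same sign for all 38.

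**Figure D1:**
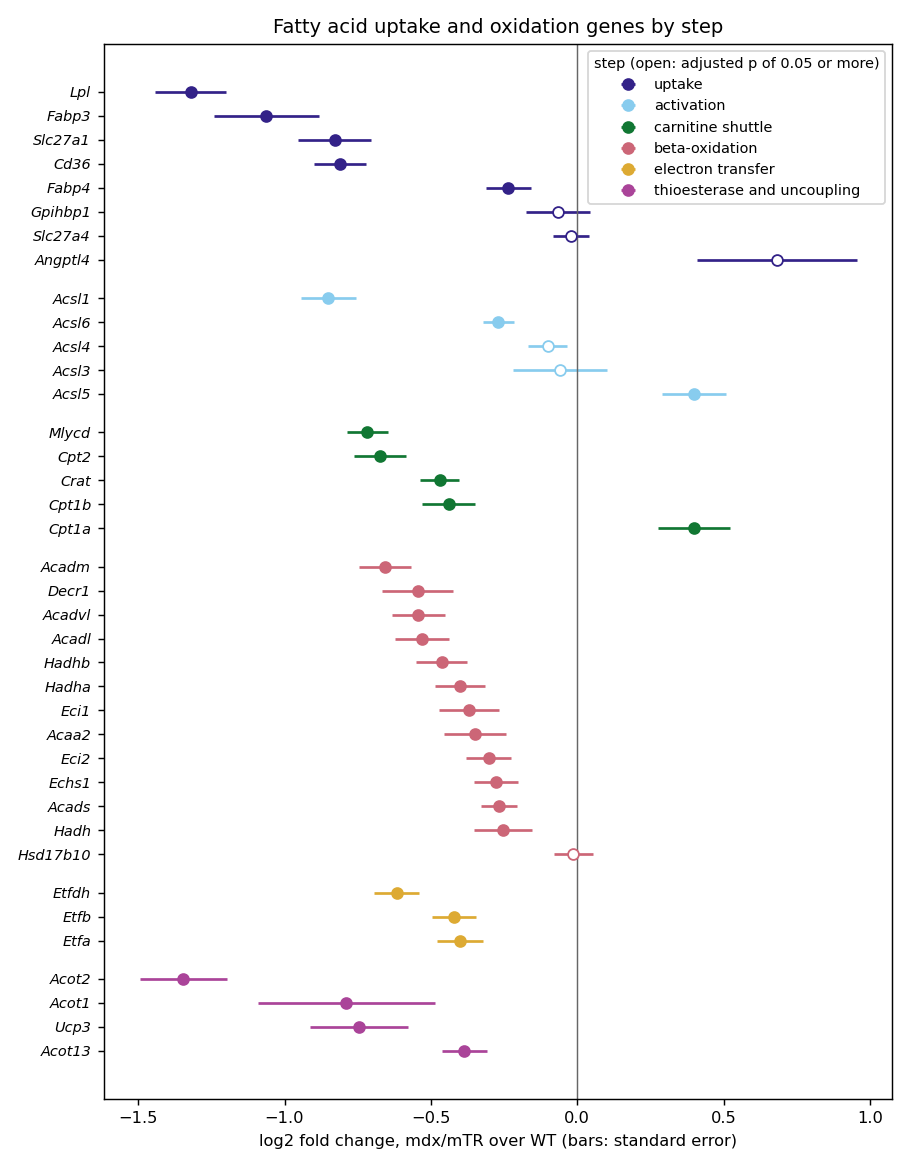
Log2 fold change (x axis, mdx/mTR relative to WT) for each of the 38 genes (y axis), coloured by step, with the standard error as bars and open points where the adjusted p was 0.05 or more. Of the 38 points 35 lie left of 0, from -1.35 for Acot2 to -0.01 for Hsd17b10, and Angptl4, Acsl5 and Cpt1a lie right of it.

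In uptake, 5 of 8 genes fell, 0 rose and 3 did not pass the test. The median log2 fold change of the step was -0.52. Lpl encodes lipoprotein lipase, the enzyme that frees fatty acids from circulating triglyceride. Its level ran from 631 CPM over a median of 777 to 907 CPM in WT and from 246 over 316 to 380 CPM in mdx/mTR. The groups did not come near each other, and the log2 fold change was -1.32 ± 0.12 (SE, adjusted p 2.8e-06). Cd36, the main fatty acid receptor of the fibre and capillary membrane, ran from 479 over 596 to 645 CPM in WT and from 275 over 328 to 389 CPM in mdx/mTR. It was at 57.1% of WT, again without overlap (-0.81 ± 0.09, adjusted p 1.2e-05). Slc27a1, the fatty acid transport protein FATP1, ran from 110 over 124 to 148 CPM in WT and from 58.1 over 64.0 to 98.5 CPM in mdx/mTR (-0.83 ± 0.13, adjusted p 1.4e-04).

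Fabp3 encodes the fatty acid binding protein of heart and muscle cytosol. It ran from 110.2 over 134 to 174 CPM in WT and from 53.3 over 58.7 to 110.6 CPM in mdx/mTR (-1.06 ± 0.18, adjusted p 3.1e-04). Replicate 3 held the highest mdx/mTR value and was the only library of that group inside the WT range. Of the 50-base stretches of the Fabp3 transcript 29.2% also occur in the pseudogene Fabp3-ps1, so its level is less certain than its neighbours'. Fabp4, the binding protein of adipocytes, capillary endothelium and macrophages, changed far less. It ran from 163 over 174 to 205 CPM in WT and from 129 over 158 to 169.96 CPM in mdx/mTR (-0.24 ± 0.08, adjusted p 0.021), and it did not pass under 4 other scalings.

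Gpihbp1, the endothelial protein that anchors lipoprotein lipase in the capillary, did not pass the test. Its level was 26.3 to 40.4 CPM in WT, against 23.5 to 36.8 CPM in mdx/mTR (-0.07 ± 0.11, adjusted p 0.65). Slc27a4, the transport protein FATP4, was at 14.5 to 16.5 CPM in WT, against 13.9 to 17.1 CPM in mdx/mTR (-0.02 ± 0.06, adjusted p 0.80). Angptl4 encodes a secreted inhibitor of lipoprotein lipase. Its WT libraries were widely spread, from 8.62 over 12.2 to 26.3 CPM, with replicates 2 and 4 at 24.5 and 26.3 CPM and the other 4 at 8.62 to 13.4 CPM. The mdx/mTR libraries lay between 18.97 and 34.9 CPM with a median of 24.6 CPM, all above the WT mean of 15.5 CPM. The log2 fold change was 0.68 ± 0.27 (adjusted p 0.052), just short of the threshold. With single libraries left out it ranged from 0.56 without mdx/mTR replicate 5 (adjusted p 0.11) to 0.90 without WT replicate 4 (adjusted p 0.012). It passed without WT replicate 2 or 4 or mdx/mTR replicate 1 or 4, and did not pass without any of the other 8. With all libraries kept, it passed scaled to the upper quartile (adjusted p 0.043), library totals (0.026), contractile genes (0.029) or mitochondrial genes (0.014). It also passed with limma-voom (adjusted p 0.02) and with a replicate block (0.045), but not with DESeq2 size factors (0.052).

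Several uptake genes are also expressed outside the fibre, and the whole muscle was sequenced, so fewer cells of a type and less RNA per cell cannot be told apart. Of 11 endothelial marker genes, 7 fell (Kdr, Tek, Egfl7, Ptprb, Flt1, Tie1 and Emcn), 1 rose (Cldn5) and Pecam1, Cdh5 and Esam did not pass. Their sum was 838 to 1056 CPM in WT, against 660 to 809 CPM in mdx/mTR. Of 7 tested adipocyte markers 1 fell (Lipe) and 0 rose, and the list summed to 47.5 to 66.0 CPM in WT, against 40.5 to 90.0 CPM in mdx/mTR, where Adipoq averaged 3.07 and 3.16 CPM. All 10 macrophage markers rose, from sums of 96.8 to 165 CPM to sums of 286 to 758 CPM. Of 9 markers of fibro-adipogenic progenitors 6 rose and 0 fell, and of 7 markers of satellite cells and regenerating fibres 6 rose and 0 fell. Of 8 markers of slow and oxidative fibres 5 rose and 2 fell, but their sum was lower in mdx/mTR, at 524 to 689 CPM compared with 752 to 2400 CPM. The falls were those of Myh2, from a mean of 1058 to 407 CPM, and Myl3, from 80.1 to 22.2 CPM, and the risers Myh7, Tnnt1, Tnni1 and Tnnc1 averaged 1.92 to 4.44 CPM in WT and Atp2a2 48.0 CPM. The part of these cells in the levels of Cd36, Fabp4, Lpl and the rest was not tested.

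In activation, the 5 long-chain acyl-CoA synthetases went different ways: 2 fell, 1 rose and 2 did not pass. The step's median log2 fold change was -0.10, but its level is mostly that of Acsl1, the main synthetase of muscle mitochondria and fat. Per kilobase of exon sequence, the WT mean of Acsl1 was 53.7 CPM, ahead of Acsl4 (9.34), Acsl6 (8.35), Acsl3 (3.82) and Acsl5 (1.88). In mdx/mTR the order was the same, from 29.8 for Acsl1 to 2.48 for Acsl5. The length used is the union of all annotated exons, which can exceed that of any 1 transcript. Before division by length the WT mean of Acsl6 (82.8 CPM) was above that of Acsl4 (50.5 CPM). The order of Acsl4 and Acsl6 thus rests on the length used. Acsl1 ran from 490.1 over 571 to 609.9 CPM in WT and from 238 over 315 to 364 CPM in mdx/mTR (-0.85 ± 0.09, adjusted p 1.3e-05), with no overlap.

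Acsl6 was 76.3 to 89.4 CPM with a median of 82.3 in WT, and 61.9 to 72.1 CPM with a median of 70.8 in mdx/mTR. The fall was small but the groups did not overlap (-0.27 ± 0.05, adjusted p 0.0011). The call was lost when libraries were scaled to contractile or mitochondrial genes (adjusted p 0.13 and 0.56). Acsl5 rose, from 7.83 over 8.75 to 10.9 CPM in WT to 10.3 over 11.3 to 15.6 CPM in mdx/mTR (0.40 ± 0.11, adjusted p 0.0083). Its groups overlapped, with 0 of 6 mdx/mTR libraries below the WT mean. Acsl4 (-0.10 ± 0.07, adjusted p 0.22) and Acsl3 (-0.06 ± 0.16, adjusted p 0.78) did not pass, and the sign of both was positive with library totals alone.

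The promoters of the genes were searched for motifs of PPAR with RXR, of the estrogen-related receptor and of MEF2. RefSeq windows of GRCm38.p6, from 250 bases before to 50 bases after a start, were found for 29 of the 38 genes (34 windows), and each motif was searched on both strands. The direct repeat bound by PPAR with RXR, AGGTCA, any 1 base, AGGTCA, was in 0 of the 34 windows and in 0.0396% of all 32851 windows, and a looser form, AGGNCA in place of AGGTCA, was in 0 and in 0.381%. A loose MEF2 form, CTA and TAG with any 4 bases between, was in 0 and in 3.69%. The estrogen-related receptor form TCAAGGTCA, which contains AGGTCA, was in 0.423% of all windows and in 1 of the 34, that of Acsl6. It is shown because it was the only match; it lies at chr11:54303633-54303689 on the plus strand, the strand of the gene, 167 bases before the start, and the capitals mark the match on the opposite strand.
Acsl6: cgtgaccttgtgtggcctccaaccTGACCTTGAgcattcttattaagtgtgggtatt

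In the carnitine shuttle, 4 of 5 genes fell and 1 rose, with a median log2 fold change of -0.47. Cpt2, the enzyme that returns acyl groups from carnitine to CoA inside the mitochondrion, ran from 99.8 over 115 to 133 CPM in WT and from 61.5 over 71.5 to 90.1 CPM in mdx/mTR (-0.67 ± 0.09, adjusted p 4.7e-05). Mlycd encodes malonyl-CoA decarboxylase, which removes the shuttle's inhibitor. It ran from 126 over 149 to 159 CPM in WT and from 80.7 over 88.9 to 101 CPM in mdx/mTR (-0.72 ± 0.07, adjusted p 4.3e-06). Crat, carnitine acetyltransferase, which exports surplus acetyl groups, ran from 699 over 742 to 748 CPM in WT and from 433 over 537 to 589 CPM in mdx/mTR (-0.47 ± 0.07, adjusted p 8.4e-05). None of these 3 genes overlapped between the groups.

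The first enzyme of the shuttle has a liver form, Cpt1a, and a muscle form, Cpt1b, and the genes changed in opposite directions. Cpt1a rose from 18.6 over 22.8 to 26.96 CPM in WT to 24.2 over 29.4 to 40.1 CPM in mdx/mTR (0.40 ± 0.12, adjusted p 0.017). Cpt1b fell from 6.81 over 7.70 to 9.55 CPM to 5.05 over 5.83 to 6.45 CPM (-0.44 ± 0.09, adjusted p 0.0014), with no overlap, but did not pass when libraries were scaled to mitochondrial genes (-0.22, adjusted p 0.073). The low level of Cpt1b should be read with care. Of its exonic bases 81.4% are shared, on the same strand, with the readthrough gene Gm44502 of the GENCODE annotation, and the count table holds a readthrough entry named ChkbCpt1b with 0 counts in 12 of 12 libraries. How reads in the shared exons were counted is not given in the sources used here, so the level of Cpt1b per length was not set against that of Cpt1a.

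In beta-oxidation, 12 of 13 genes fell, 0 rose and Hsd17b10 did not pass. The median log2 fold change was -0.37, a smaller shift than in uptake. The acyl-CoA dehydrogenases take the first step, each for its own chain lengths. Acadm, the medium-chain enzyme, ran from 343 over 354 to 418 CPM in WT and from 179 over 233 to 274 CPM in mdx/mTR (-0.66 ± 0.09, adjusted p 5.1e-05). Acadvl, the very-long-chain enzyme, ran from 502 over 547 to 617 CPM in WT and from 289.8 over 386 to 433 CPM in mdx/mTR (-0.54 ± 0.09, adjusted p 2.9e-04). Acadl, the long-chain enzyme, ran from 364 over 396 to 481 CPM in WT and from 236 over 282 to 351 CPM in mdx/mTR (-0.53 ± 0.09, adjusted p 4.3e-04). The short-chain enzyme Acads changed least of the 4, from a median of 112 to 94.7 CPM (-0.27 ± 0.06, adjusted p 0.0030), and in each of the 4 genes the groups did not overlap. For Acadvl, 42.9% of exonic bases lie under exons of Dvl2 on the other strand, and since the handling of strand is not given its level is uncertain. Dvl2 itself had 184 to 444 counts per library and rose (0.29 ± 0.09, adjusted p 0.014).

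The trifunctional protein carries out the following steps for long chains and is built from the products of Hadha and Hadhb. Hadha ran from 481 over 507 to 587 CPM in WT and from 314 over 386 to 475 CPM in mdx/mTR (-0.40 ± 0.09, adjusted p 0.0017). Hadhb ran from 58.9 over 63.2 to 73.3 CPM in WT and from 35.4 over 48.3 to 51.8 CPM in mdx/mTR (-0.46 ± 0.09, adjusted p 7.4e-04). Both fell without overlap. Of the 50-base stretches of Hadhb 62.4% also occur in the GENCODE genes Gm13910 and Gm9108, so its level is uncertain. The pair starts head to head, with 272 bases between the RefSeq starts, and the 85 bases that lie outside the GENCODE ends of both genes, chr5:30155163-30155247 of GRCm38 on the plus strand, are shown because partner genes that fell together share them. They hold 69.4% G and C and 9 CpG pairs, and no part is in capitals since none of the motifs was found there.
Hadha-Hadhb: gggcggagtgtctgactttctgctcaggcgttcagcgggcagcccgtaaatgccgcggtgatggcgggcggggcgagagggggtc

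In the other genes of the spiral the groups overlapped. Decr1, the dienoyl-CoA reductase for unsaturated chains, was at 68.5% of WT (-0.55 ± 0.12, adjusted p 0.0023). Eci1 and Eci2, the enoyl-CoA isomerases for unsaturated chains, had log2 fold changes of -0.37 ± 0.10 and -0.30 ± 0.08 (adjusted p 0.0088 and 0.0048). Acaa2, the thiolase of medium and short chains, had -0.35 ± 0.11 (adjusted p 0.014), and Echs1, the short-chain hydratase, -0.28 ± 0.08 (adjusted p 0.0077). Hadh, the short-chain hydroxyacyl-CoA dehydrogenase, was nearest the threshold (-0.25 ± 0.10, adjusted p 0.048) and lost the call without most single libraries. Its adjusted p was 0.11 without WT replicate 2, which at 265 CPM stood above the 194 to 208 CPM of the other WT libraries. Hsd17b10, a dehydrogenase of branched-chain catabolism that is also a part of mitochondrial RNase P, was at 36.5 to 43.6 CPM in WT, against 36.0 to 44.8 CPM in mdx/mTR (-0.01 ± 0.07, adjusted p 0.88). It was called higher with library totals alone (0.14, adjusted p 0.046) and scaled to mitochondrial genes (0.21, adjusted p 0.034).

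In electron transfer, all 3 genes fell and in each the groups did not overlap. Etfdh, the oxidoreductase that hands electrons to ubiquinone, ran from 199 over 220.2 to 243 CPM in WT and from 115 over 147 to 162 CPM in mdx/mTR (-0.62 ± 0.08, adjusted p 2.9e-05). Etfa and Etfb encode the subunits of the electron transfer flavoprotein. Etfa ran from 197 over 206 to 238 CPM in WT and from 125 over 164 to 179 CPM in mdx/mTR (-0.40 ± 0.08, adjusted p 9.8e-04). Etfb ran from 156 over 159.6 to 185 CPM in WT and from 101 over 122 to 143 CPM in mdx/mTR (-0.42 ± 0.07, adjusted p 4.5e-04). Of the exonic bases of Etfb 58.2% are shared on the same strand with the GENCODE genes Gm45233 and Mir7051.

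The 4 thioesterase and uncoupling genes all fell, with the lowest median of the 6 steps, -0.77. Acot2, a mitochondrial thioesterase that frees fatty acids from CoA, showed the largest change of the 38 genes. It ran from 28.4 over 35.4 to 54.2 CPM in WT and from 11.2 over 14.2 to 18.4 CPM in mdx/mTR (-1.35 ± 0.15, adjusted p 1.2e-05), without overlap. Acot13, a smaller thioesterase of mitochondria, ran from 65.8 over 75.8 to 81.5 CPM in WT and from 45.2 over 58.1 to 65.7 CPM in mdx/mTR (-0.39 ± 0.08, adjusted p 0.0011). Ucp3, a carrier of the inner mitochondrial membrane induced by fatty acids in muscle, ran from 286 over 460.0 to 637 CPM in WT and from 214 over 273 to 352 CPM in mdx/mTR (-0.75 ± 0.17, adjusted p 0.0025). Its WT libraries were spread more widely than those of mdx/mTR, and WT replicate 2, the lowest, lay inside the mdx/mTR range.

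Acot1, the cytosolic paralog beside Acot2 on chromosome 12, was barely counted, at 0.366 to 1.09 CPM in WT, against 0.196 to 0.554 CPM in mdx/mTR, with 12 counts in the lowest library. It passed narrowly (-0.79 ± 0.30, adjusted p 0.044), and the call was lost with a replicate block (adjusted p 0.075) and without WT replicate 4 (adjusted p 0.12). Of its 50-base stretches 33.2% occur in other genes, chiefly Acot2, and of those of Acot2 27.7%, chiefly in Acot1. The last 100 bases before each RefSeq start, on the plus strand at chr12:83987761-83987860 for Acot2 and chr12:84009402-84009501 for Acot1, are shown because the paralogs differ so much in level. In a global alignment with gaps 61 of the 100 bases were identical, of 78 aligned. No part is in capitals, since no motif was found in either.
Acot2: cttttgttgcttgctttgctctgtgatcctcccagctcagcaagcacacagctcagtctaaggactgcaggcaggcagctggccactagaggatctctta
Acot1: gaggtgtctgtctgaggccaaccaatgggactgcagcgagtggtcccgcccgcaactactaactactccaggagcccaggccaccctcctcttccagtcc

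**Figure D2:**
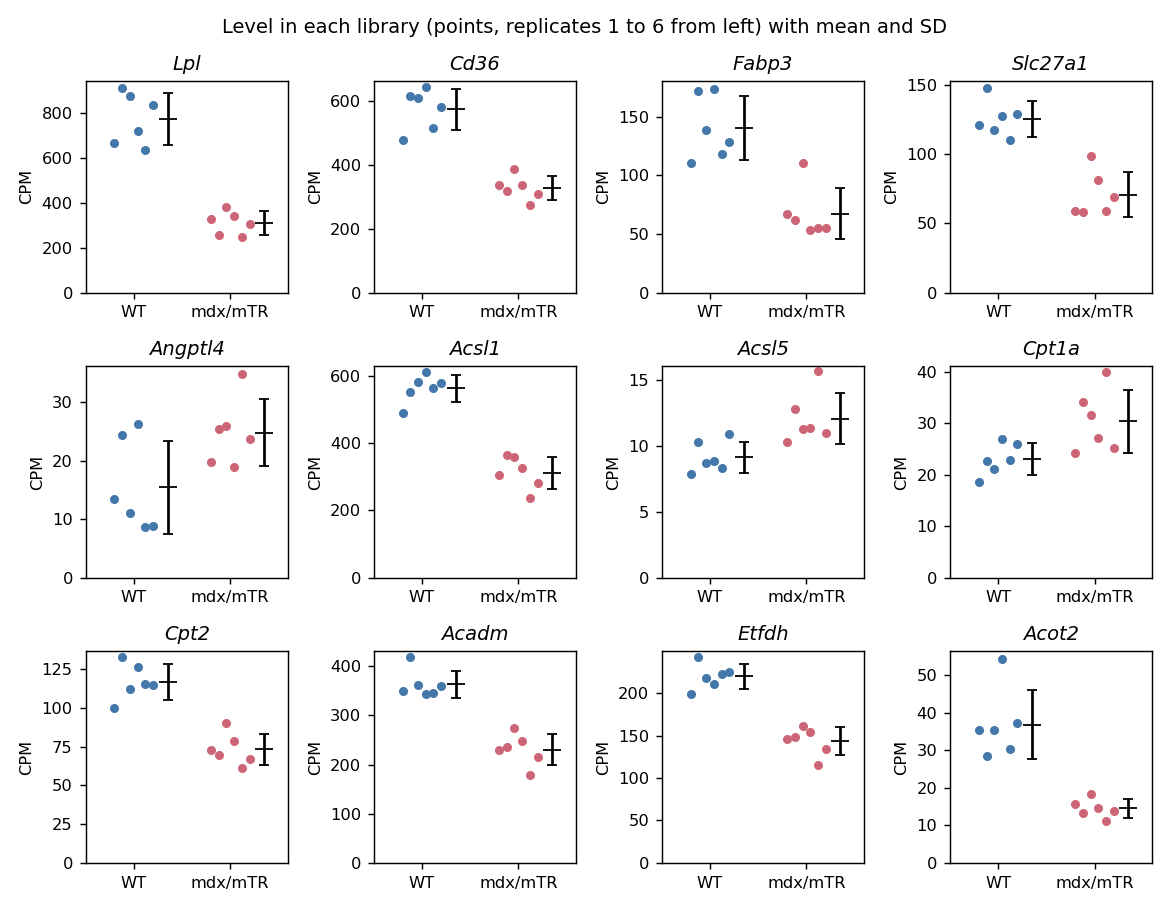
Level in CPM (y axis, from 0) of 12 genes in each library of WT and mdx/mTR, with the mean and SD over 6 libraries beside the points. Lpl, Cd36, Slc27a1, Acsl1, Cpt2, Acadm, Etfdh and Acot2 do not overlap between groups, Fabp3 overlaps through mdx/mTR replicate 3, and Angptl4, Acsl5 and Cpt1a are higher on average in mdx/mTR with overlap.

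Ratios of counts within a library, which need no scaling, were used to ask whether members of a step changed by different amounts. The 8 ratios were pairs of isoforms, partners, or an enzyme with its anchor or inhibitor, chosen with earlier results of these data known. Their p-values are therefore no independent support for the changes of the single genes. Groups were compared by a two-sided exact permutation test, adjusted over the 8. The smallest p that 6 against 6 allows is 0.00216. The log2 ratio of Lpl to Gpihbp1 was 4.56 ± 0.14 in WT, against 3.30 ± 0.32 in mdx/mTR (SDs over n = 6 libraries, exact permutation p 0.00216, adjusted p 0.00433). Lipase transcripts per anchor transcript thus differed 2.39-fold, with no overlap. The log2 ratio of Lpl to Angptl4 was 5.78 ± 0.69 and 3.65 ± 0.50 (exact permutation p 0.00216, adjusted p 0.00433). Counts of the enzyme's transcript relative to the inhibitor's thus differed 4.36-fold, and protein was not measured. This ratio was lower in 6 of 6 mdx/mTR libraries than in any WT library.

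The log2 ratio of Cpt1a to Cpt1b was 1.54 ± 0.23 in WT, against 2.36 ± 0.38 in mdx/mTR, a 1.77-fold shift toward the liver form among the counted reads (exact permutation p 0.00216, adjusted p 0.00433). That of Slc27a4 to Slc27a1 rose 1.77-fold, from -3.00 ± 0.15 to -2.17 ± 0.40 (exact permutation p 0.00216, adjusted p 0.00433). Neither of these ratios overlapped between groups. Acsl6 to Acsl1 moved from -2.76 ± 0.17 to -2.17 ± 0.21, and Fabp4 to Fabp3 from 0.37 ± 0.16 to 1.23 ± 0.35 (exact permutation p 0.00433, adjusted p 0.00577 for each), with 6 of 6 mdx/mTR libraries above the WT mean in both.

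For the partner subunits neither ratio passed the test. Levels of Hadhb and Etfb are uncertain, since 62.4% and 67.3% of their 50-base stretches also occur in other genes. The log2 ratio of Hadha to Hadhb was 3.01 ± 0.06 in WT, against 3.08 ± 0.10 in mdx/mTR (exact permutation p 0.203, adjusted p 0.233). For Etfa to Etfb it was 0.36 ± 0.04 and 0.38 ± 0.09 (exact permutation p 0.61, adjusted p 0.61). These ratios differed by 0.06 and 0.02 between the groups, while the genes themselves had fallen by 0.40 to 0.46 on the log2 scale.

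**Figure D3:**
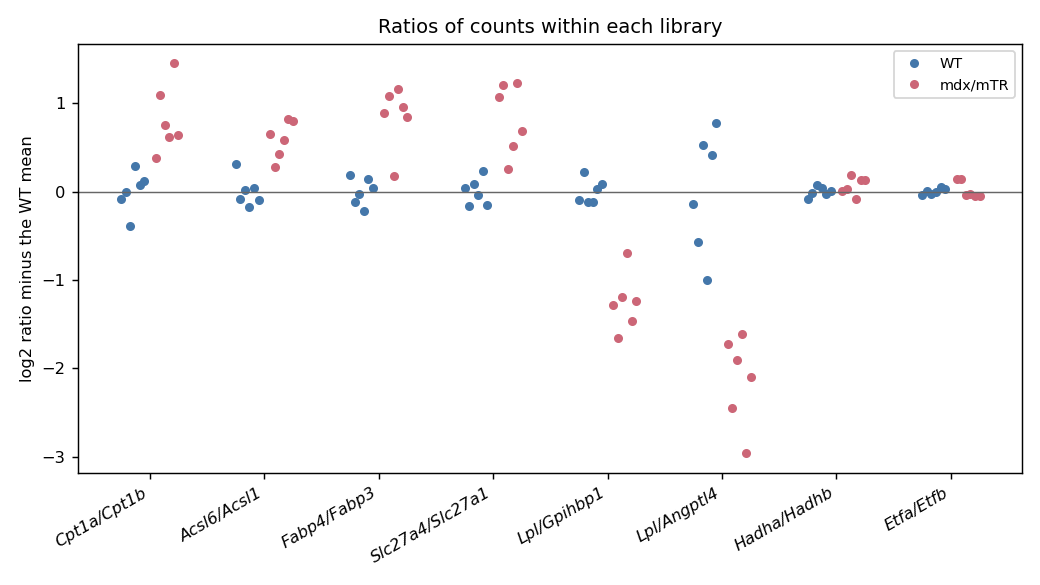
Log2 ratio of the counts of 2 genes in each library, minus the WT mean of that ratio (y axis), for 8 pairs (x axis), with 1 point per library. Cpt1a/Cpt1b, Slc27a4/Slc27a1, Lpl/Gpihbp1 and Lpl/Angptl4 separate the groups. In Hadha/Hadhb and Etfa/Etfb the groups overlap, with 5 and 2 of 6 mdx/mTR libraries above the WT mean.

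The steps were set side by side by their summed level. In mdx/mTR the sum was at 53.8% of WT for uptake, 60.5% for thioesterases and uncoupling, 63.2% for activation, 70.9% for the carnitine shuttle, 71.6% for electron transfer and 73.4% for beta-oxidation. The groups did not overlap in 5 of these sums. In thioesterases and uncoupling WT replicate 2, at 389.9 CPM, fell inside the mdx/mTR range of 271 to 427 CPM. Differences between steps were not tested. Some of the sums rest mostly on few genes. In WT, Ucp3 averaged 468 of 580 CPM in thioesterases and uncoupling, and Crat 735 of 1031 CPM in the carnitine shuttle. Lpl and Cd36 averaged 772 and 575 of 1856 CPM in uptake. In the carnitine shuttle the WT libraries were closest together, at 1031 ± 18.4 CPM against 730.5 ± 65.2 CPM in mdx/mTR (SD over 6 libraries).

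**Figure D4:**
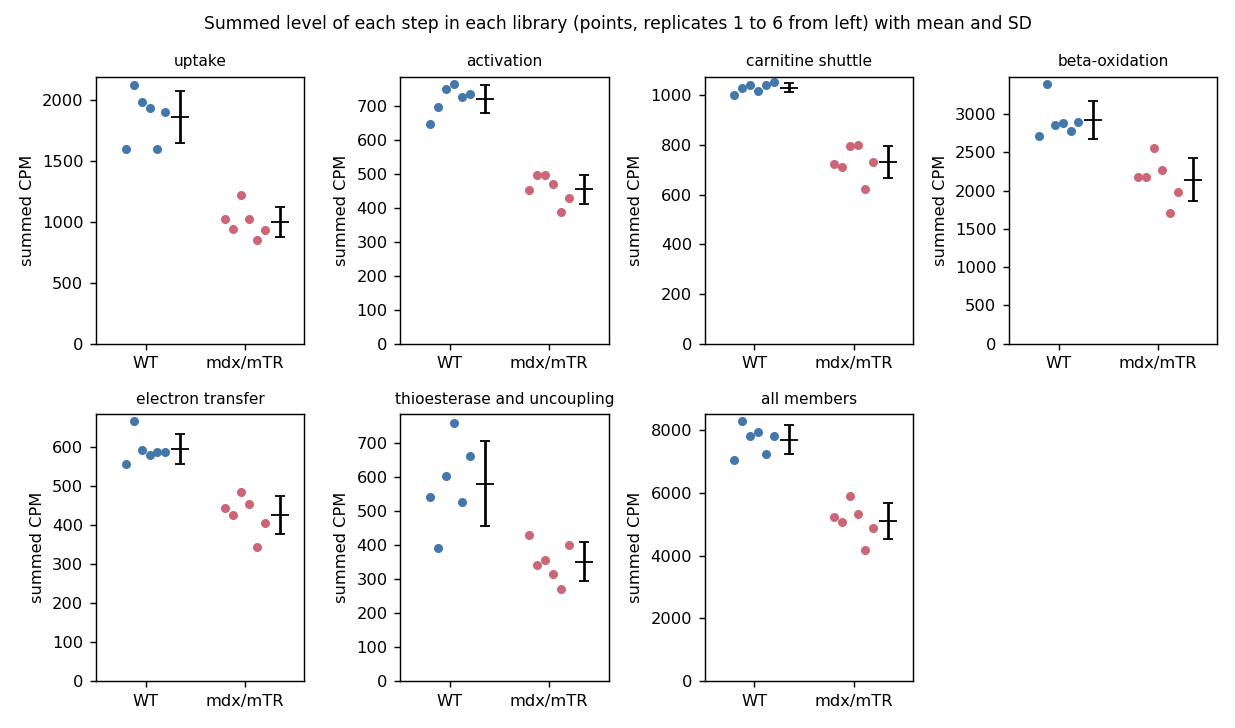
Summed CPM of the genes of each step (y axis, from 0) in each library of WT and mdx/mTR, with mean and SD over 6 libraries. The 2 groups separate in every panel but thioesterase and uncoupling, where the lowest WT library (389.9 CPM) lies below the highest mdx/mTR library (427 CPM).

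Libraries differed within each group, and more in mdx/mTR. The median coefficient of variation over the 38 genes was 9.45% in WT and 13.9% in mdx/mTR. It was highest in WT for Angptl4 (51.0%), Acot1 (38.9%), Ucp3 (25.6%) and Acot2 (24.8%), and WT replicate 4 held the highest value of all 4. In mdx/mTR, replicate 5 was the lowest library for 25 of the 38 genes and replicate 3 the highest for 22. Replicate 5 also had the highest sum of macrophage markers (758 CPM, against 286 to 543 in the others) and of satellite and regenerating fibre markers (509 CPM, against 113 to 251), and the lowest sum of the 19 mitochondrial reference genes (16449 CPM, against 19598 to 21607). The part of these cells in the levels of replicate 5 was not tested. Without mdx/mTR replicate 5, 29 of the 38 genes fell, and 6263 of the 13937 tested genes passed in either direction. WT replicate 2 was highest of its group for 19 genes. It also had the highest sum of slow and oxidative fibre markers (2400 CPM, against 752 to 1282 in the other WT libraries). Without WT replicate 2, 28 of the 38 genes fell, and 6771 of all tested genes passed in either direction.

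The falls were then read against 2 reference lists. Of 16 fast fibre contractile genes 4 fell and 2 rose, with a median log2 fold change of -0.19. Of 19 nuclear genes of the citric acid cycle, respiratory chain and outer membrane, 13 fell and 0 rose, with a median of -0.21. When libraries were scaled to the contractile genes, 21 of the 38 genes still fell and 3 rose, where 8.92% of tested genes fell and 31.9% rose. Scaled to the mitochondrial genes, 20 fell and 4 rose, where 6.45% fell and 42.9% rose. With library totals alone 22 fell and 4 rose, where 11.2% fell and 40.2% rose. The 12 falls of beta-oxidation became 6 under each of these 3 scalings. These scalings raise the median of all tested genes from 0.01 to 0.17, 0.24 and 0.17 in that order.

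The same 20 genes passed under each of 5 other scalings, with DESeq2, with limma-voom, with a replicate block and without any 1 library. Over all tested genes DESeq2 called 24.5% lower and 25.3% higher, limma-voom 23.5% and 24.0%, the block 22.3% and 23.7%, and upper-quartile scaling 19.4% and 28.4%. The 20 genes are Cd36, Fabp3, Lpl, Slc27a1, Acsl1, Cpt2, Crat, Mlycd, Acadvl, Acadl, Acadm, Hadha, Hadhb, Decr1, Etfa, Etfb, Etfdh, Acot2, Acot13 and Ucp3. The other 10 that fell with TMM, Fabp4, Acsl6, Cpt1b, Acads, Hadh, Echs1, Eci1, Eci2, Acaa2 and Acot1, lost the call under at least 1 scaling.

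**Figure D5:**
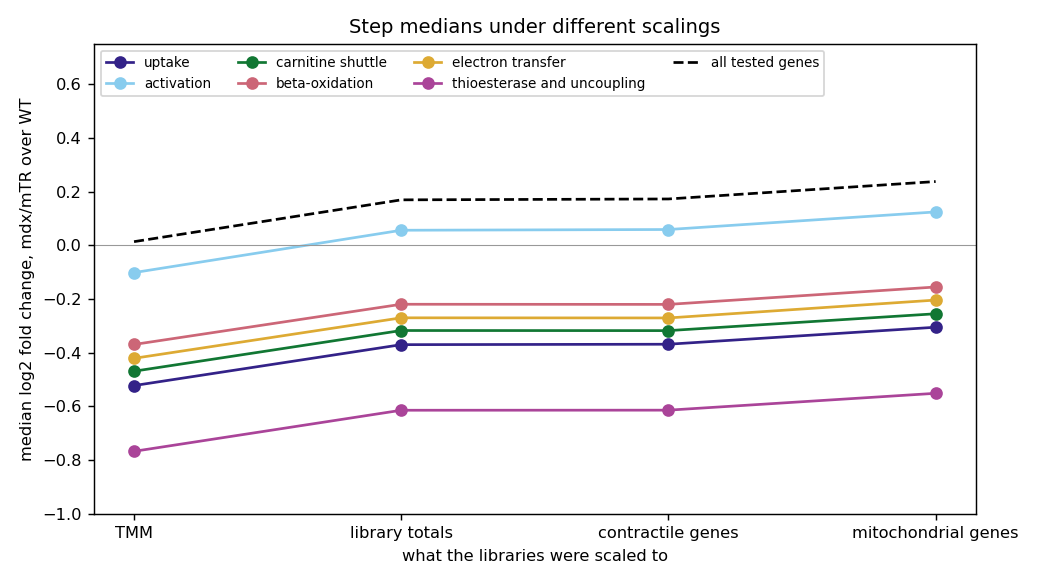
Median log2 fold change of each step (y axis) under TMM, library totals, scaling to contractile genes and scaling to mitochondrial genes (x axis), with the median of all tested genes as a dashed line. Each step lies below the dashed line under all 4, and only activation crosses 0, from -0.10 with TMM to 0.06, 0.06 and 0.12.

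Other genes of fatty acid handling were counted from lists that hold none of the 38. Of 7 tested genes of carnitine supply and malonyl-CoA, 3 fell and 0 rose. Acacb, the acetyl-CoA carboxylase at the mitochondrial surface, went from 661 ± 40.8 to 372 ± 45.1 CPM (-0.83 ± 0.08, adjusted p 4e-06), and Slc22a5, the plasma membrane carnitine transporter, from 16.4 ± 1.30 to 11.96 ± 0.447 CPM (-0.46 ± 0.06, adjusted p 4.4e-05). Transcripts of Acacb, for an enzyme that makes malonyl-CoA, and of Mlycd, for the one that removes it, thus both fell. Acaca, the other acetyl-CoA carboxylase gene of the list, did not pass (0.17 ± 0.09, adjusted p 0.13). It too is named after its value was seen. The remaining fall was that of Slc25a20, the carnitine-acylcarnitine carrier (-0.69 ± 0.10, adjusted p 7.2e-05), named here after its value was seen.

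Of 14 tested peroxisomal genes 6 fell and 2 rose, led by Hsd17b4, the multifunctional enzyme of peroxisomal oxidation (-0.45 ± 0.04, adjusted p 4.2e-06), and Abcd3, a transporter of the peroxisomal membrane (-0.56 ± 0.06, adjusted p 1.2e-05). Of 19 other tested mitochondrial genes 8 fell and 3 rose. Bdh1, which interconverts ketone bodies, went from 26.0 ± 10.1 to 3.42 ± 1.56 CPM (-2.94 ± 0.30, adjusted p 6.3e-06), a larger change than in any of the 38. Acot9, a further mitochondrial thioesterase, rose from 15.5 ± 0.908 to 25.2 ± 4.25 CPM (0.70 ± 0.10, adjusted p 5.8e-05), against the fall of Acot2 and Acot13. Of 9 tested uptake and binding genes 3 fell and 1 rose. The fall with the smallest p was that of Vldlr, a lipoprotein receptor (-0.73 ± 0.14, adjusted p 9.1e-04), and the rise that of Fabp5, a binding protein found in many cell types, macrophages included, from 3.27 ± 1.04 to 6.70 ± 2.19 CPM (1.03 ± 0.24, adjusted p 0.0027).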

How the data were processed

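RNA from 12 tibialis anterior samples was sequenced, and the authors deposited 1 table of raw counts per gene symbol and 1 table of their own comparison. Per the submitters' processing notes the tools were FastQC, STAR and DESeq2 and the build was mm10; the counter, its annotation and its handling of strand are not given in the sources used here. The authors' deposited comparison holds a mean normalised signal, log2 fold changes with standard errors, a test score and p-values per gene, of which only the log2 fold changes and adjusted p-values were used.

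Columns were matched to samples by name, and 0 columns were left unmatched. The counts as deposited were filtered with edgeR's filterByExpr, scaled with TMM and tested with edgeR's quasi-likelihood test (edgeR 4.0.16, limma 3.58.1, R 4.3.3), all 12 libraries in 1 fit, with Benjamini-Hochberg adjustment over 13937 genes. Ratios were log2 of counts plus 0.5 in each library (Python 3.11.15, scipy 1.17.1). Per-kilobase levels used the exon union of GENCODE M21. Replicate pairs differed beyond counting noise (chi-square per degree of freedom 8.87 to 116), so none was taken for a library deposited in duplicate. In simulated counts of the same 13937 genes, 64% of 100 genes changed by 0.5 on the log2 scale and 85% of 100 changed by 1 were recovered, with 3 false calls of 152. Only these genes were changed in the simulation, up and down equally, while 6736 genes passed in the real data. These rates therefore need not hold for the fit used here.

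All 38 genes are named with their values; levels over the libraries were given for the 3 with the smallest p in each step, those called higher and those in ratios, and of each list of other fatty acid genes the 2 with the smallest p. The genes, lists and ratios were chosen with earlier results of these data known. Alternatives were other scalings, DESeq2 1.42.0, limma-voom, other filters, an adjusted p of 0.01, a pseudocount of 5, a replicate block and leaving out each library. Promoter windows came from RefSeq (GRCm38.p6).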

Additional observations from a re-analysis of the deposited data

Results flagged for a closer look

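In groups of 6 libraries, the highest or lowest value was compared with the rest by Dixon's test at the 95% level, over 92 groups of values. Chance flags about 1 in 20 such groups, 4.6 of these 92, and 11 stood apart.

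WT replicate 2 stood above the other 5 WT libraries in 6 genes of beta-oxidation and electron transfer. It was at 418.3 CPM for Acadm (others 343.2 to 362.1), 73.31 CPM for Hadhb (others 58.9 to 64.02) and 265.2 CPM for Hadh (others 193.6 to 208.5). It was at 248.0 CPM for Acaa2 (others 172.6 to 193.5), 238.4 CPM for Etfa (others 196.8 to 208.0) and 184.6 CPM for Etfb (others 156.4 to 165.1). The same library had the highest sum of slow and oxidative fibre markers, and their part in these values was not tested.

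Replicate 3 of mdx/mTR stood apart in 3 values. Its Fabp3 level was 110.6 CPM against 53.34 to 67.42 in the others, and its log2 ratio of Fabp4 to Fabp3 was 0.5523 against 1.216 to 1.536. Its Acsl4 level was the lowest, at 40.27 CPM against 46.57 to 50.2. It also had the highest sum of adipocyte markers of all libraries, 90.0 CPM, and their part was not tested.

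WT replicate 4 was lowest for Crat, at 699.1 CPM against 730.7 to 747.8, and highest for Acot2, at 54.23 CPM against 28.45 to 37.4.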

How the results depend on the processing

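Of the 38 genes, 20 to 30 fell under the alternatives (28 to 30 with each library left out, and 26 at an adjusted p under 0.01). Over all 13937 tested genes, 6736 passed in either direction in the main fit. With each library left out 6081 to 6771 passed, and 4621 at an adjusted p under 0.01. The number that rose was 2 with TMM and 2 or 3 under the alternatives (each library left out included), except for 4 with library totals alone, 4 scaled to mitochondrial genes and 1 at an adjusted p under 0.01. Scaled differently, the median of activation turned positive (0.0562 with totals, 0.0589 scaled to contractile genes, 0.1244 to mitochondrial genes). Medians of other steps moved by more than their spread when scaled to mitochondrial genes: carnitine shuttle -0.2549, beta-oxidation -0.1552, thioesterases -0.5512, electron transfer -0.2039 (also -0.27 with totals and -0.2705 scaled to contractile genes). Single genes that had not passed turned positive with totals, contractile and mitochondrial scaling in that order: Gpihbp1 0.0887, 0.09 and 0.1577, Slc27a4 0.1397, 0.1482 and 0.2115, Acsl3 0.1014, 0.1054 and 0.1841, Acsl4 0.0562, 0.0589 and 0.1244, Hsd17b10 0.1389, 0.1367 and 0.2051. With the upper quartile Slc27a4 was 0.0196 and Hsd17b10 0.0267. With single libraries left out, the values ranged from -0.1217 to 0.0047 for Gpihbp1, -0.0573 to 0.0073 for Slc27a4, -0.1652 to 0.0539 for Acsl3, -0.0474 to 0.0218 for Hsd17b10 and -0.0051 to 0.0343 for Etfa to Etfb. The cause was not tested.

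The labels do not state that replicate numbers pair the samples. Same-numbered deviations correlated at -0.155 to 0.354, over 0.1 in 2 of 6 pairs. Of the 6 WT libraries 2 correlated best with their own number. These values cannot settle whether the numbers pair samples. With a replicate block 29 genes fell and 3 rose, and 6420 genes passed in all against 6736. By exact sign flips 6 ratios had an adjusted p of 0.0417. The smallest unadjusted p that sign flips of 6 pairs allow is 0.0312, so this test has little room. The ratios were also chosen with earlier results known. The lowest count in a library was 12 for Acot1 and 236 for the next gene, Cpt1b; what depth limits was not tested.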
